A study of Homo sapiens with 2 samples.

Results

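Accessible regions that lie at the ends of 2 or more protein-coding genes were examined in U2OS, an established human osteosarcoma cell line. Chromatin accessibility had been measured by ATAC-seq, in which Tn5 transposase inserts adapters into open chromatin, in cells infected with the hairpin sh-VNGD, directed at Vanguard, a long non-coding RNA, and in cells infected with the control hairpin sh-ctrl. Both groups were grown in the same medium and each had 1 library, so no difference has a replicate check and no p-value was computed. All intervals reflect counting error alone. ATAC-seq does not measure RNA, so the knockdown could not be checked in these data. Peaks of the 2 libraries on chromosomes 1 to 22 were merged where they overlapped, and a region was kept when it lay within 1000 bp of an outer end of at least 2 different RefSeq protein-coding genes. The rule used position and the presence of a peak, and no level. It found 2917 regions among 338855, and 17711 further regions lay at a single gene end. Pileup is the number of tags covering the highest summit of a region, as deposited, without scaling for depth.

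The libraries differed in depth. The sh-VNGD library kept 31326715 of 48164322 tags and the sh-ctrl library 22931980 of 51628228 after repeated positions had been removed. More peaks were called for sh-VNGD, 285039 against 202226 for sh-ctrl on these chromosomes. As a check of the labelled cell type, a gene-end region with peaks of both libraries was present at 4 of 8 osteoblast and mesenchymal markers (COL1A1, COL1A2, TWIST1 and FN1), at 3 of 6 haematopoietic markers and at 4 of 4 epithelial markers. Open gene ends thus did not separate the lineages. Of the other osteoblast and mesenchymal markers, ALPL had a peak of 1 library only. The osteoblast regulator RUNX2, SPARC and VIM had no peak at an outer end. Starts inside the outer bounds of a gene were not examined.

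Neighbouring genes can meet in 3 ways. In a divergent pair the starts lie back to back on opposite strands, and a single nucleosome-free stretch between them can serve as a bidirectional promoter from which both genes are transcribed. In a tandem pair the far end of one gene is followed by the start of the next on the same strand, and in a convergent pair 2 far ends face each other and no annotated promoter need be present. Divergent arrangements are common among housekeeping genes, including those of DNA repair, mitochondria and the cell cycle, and their promoters tend to be rich in CpG and poor in TATA boxes.

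The stretch between the annotated starts is shown for 7 divergent pairs, because it is the sequence that both genes share. The pairs are the highest divergent regions with closely spaced starts and known bidirectional pairs. Sequences come from RefSeq, build GRCh38.p14. Capitals mark matches, on either strand, to any of 8 searched motifs. The TATA box was searched as TATAAA, the GC box, which Sp1-type factors bind, as GGGCGG, and the CCAAT box by its own 5 letters. For the ETS core, the letters were CCGGAAG, and for the core of the factor YY1 they were AAGATGG. A cyclic AMP response element, or CRE, was searched as TGACGTCA. Core motifs of the factors NRF1 and ZNF143 were searched as well. None of the motifs is contained in another.
TUBD1 and RPS6KB1, chr17:59892944-59893120, forward strand: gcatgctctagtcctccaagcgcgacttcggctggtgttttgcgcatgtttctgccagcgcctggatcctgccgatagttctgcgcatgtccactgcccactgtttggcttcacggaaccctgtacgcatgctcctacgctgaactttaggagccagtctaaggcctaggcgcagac
PTRH2 and VMP1, chr17:59707431-59707653, forward strand: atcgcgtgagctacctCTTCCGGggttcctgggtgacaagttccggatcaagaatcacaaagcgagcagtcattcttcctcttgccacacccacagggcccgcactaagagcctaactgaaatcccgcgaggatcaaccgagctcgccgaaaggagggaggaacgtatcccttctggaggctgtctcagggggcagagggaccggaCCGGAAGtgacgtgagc
GART and SON, chr21:33542894-33543037, forward strand: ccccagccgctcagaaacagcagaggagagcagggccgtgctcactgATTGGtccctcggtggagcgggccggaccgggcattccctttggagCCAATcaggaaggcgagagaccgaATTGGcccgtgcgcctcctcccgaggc
HSPD1 and HSPE1, chr2:197500275-197500378, forward strand: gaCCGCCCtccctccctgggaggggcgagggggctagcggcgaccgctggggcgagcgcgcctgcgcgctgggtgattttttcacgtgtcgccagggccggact
HARS1 and HARS2, chr5:140691371-140691454, forward strand: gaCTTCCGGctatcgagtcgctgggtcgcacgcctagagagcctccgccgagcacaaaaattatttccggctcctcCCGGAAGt
TK1 and AFMID, chr17:78187205-78187361, forward strand: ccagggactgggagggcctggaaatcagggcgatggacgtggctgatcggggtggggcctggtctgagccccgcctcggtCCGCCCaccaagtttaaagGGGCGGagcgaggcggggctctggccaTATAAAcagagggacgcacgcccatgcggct
SARS2 and MRPS12, chr19:38930764-38930943, forward strand: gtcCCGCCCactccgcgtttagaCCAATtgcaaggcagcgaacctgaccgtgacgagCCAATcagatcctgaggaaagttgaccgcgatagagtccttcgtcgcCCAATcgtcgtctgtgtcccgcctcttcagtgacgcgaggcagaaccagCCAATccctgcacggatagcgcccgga
The stretch shared by the tubulin gene TUBD1 and the S6 kinase gene RPS6KB1, 177 bases long, held none of the motifs, and this says only that these letters were not found there. The stretch between PTRH2 and VMP1 held an ETS core near each start. Between GART, which encodes an enzyme of purine synthesis, and SON, a splicing protein gene, CCAAT boxes were found on both strands. The HARS1 and HARS2 stretch, only 84 bases long, carried an ETS core at either edge. A TATA box lay between the thymidine kinase gene TK1 and AFMID, with GC boxes.

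By arrangement, 1278 of the 2917 regions (43.8%) were divergent, 470 (16.1%) tandem and 189 (6.48%) convergent. A further 164 regions had 2 ends of the same kind on the same strand, 52 had a start and a far end on opposite strands, and 764 could not be classed because strand was not given for at least 1 gene in the table used. Class was taken from the 2 genes whose ends lay nearest to the highest summit. The median distance between the paired ends was 225 bp in divergent, 581.5 bp in tandem and 359 bp in convergent regions. Exactly 2 genes were involved in 2784 regions, 3 genes in 126 and 4 genes in 6. A single region, chr5:141512239-141512697, lay at the common far end of 22 protocadherin gamma genes, which encode cell adhesion proteins and share their last exons. It had 25 tags in sh-VNGD against 40 in sh-ctrl. In all, 4487 of 19126 genes (23.5%) had an end in such a region. Shared ends made up 18.6% of gene-end regions on chromosome 16 and on chromosome 17, 18.3% on chromosome 19 and 6.54% on chromosome 18. Members are not independent, since 468 of the 2410 nearest gene pairs had 2 or more regions.

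Regions at shared ends had higher pileups than regions at 1 end. The median was 67 tags in sh-VNGD against 74 in sh-ctrl at shared ends (2742 and 2614 regions with a peak), against 45 in sh-VNGD against 48 in sh-ctrl at a single end. The quartiles at shared ends were 37 and 106 tags in sh-VNGD, and 40 and 114 in sh-ctrl. Shared-end regions were also wider, with a median of 671 bp against 462 bp, and wide regions reach more gene ends. Within a fixed width the difference was smaller: from 400 to 800 bp the medians were 66 tags in sh-VNGD against 68 in sh-ctrl at shared ends, against 56 in each library at a single end.

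**Figure D1:**
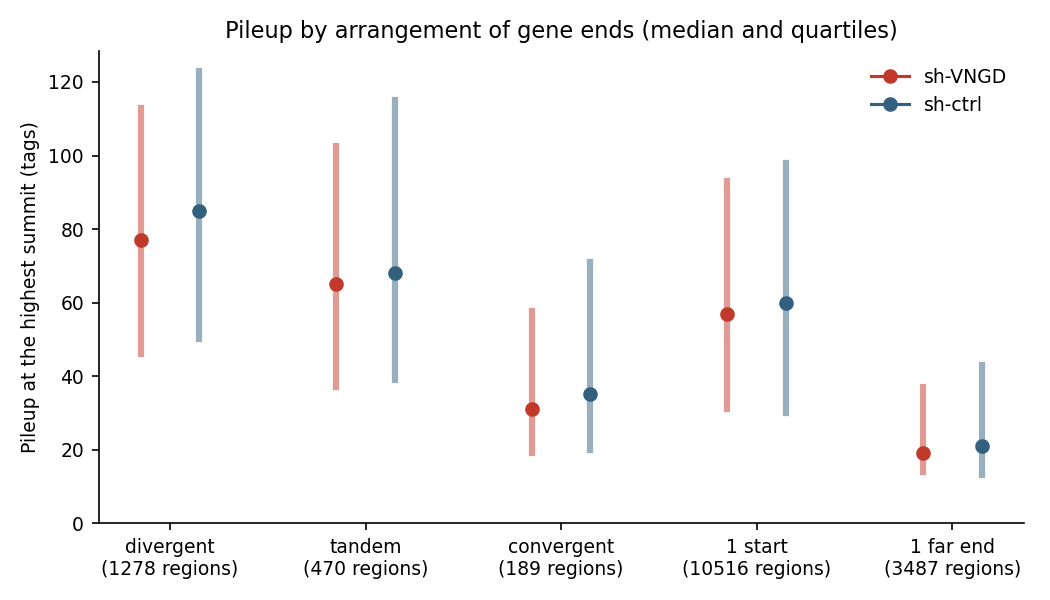
Pileup at the highest summit in tags (vertical axis) by arrangement of gene ends, in sh-VNGD and sh-ctrl, with points at the median and bars from the first to the third quartile over regions. Divergent regions have the highest medians, 77 tags in sh-VNGD against 85 in sh-ctrl, and regions at 1 far end the lowest.

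Levels differed with the arrangement. Divergent regions had medians of 77 tags in sh-VNGD against 85 in sh-ctrl, tandem regions 65 in sh-VNGD against 68 in sh-ctrl, and convergent regions 31 in sh-VNGD against 35 in sh-ctrl. Regions at 1 gene start, for comparison, had 57 tags in sh-VNGD against 60 in sh-ctrl, and regions at 1 far end 19 in sh-VNGD against 21 in sh-ctrl. In pileup, regions with 2 starts thus exceeded regions with 1 start, and regions with 2 far ends exceeded those with 1. By fold enrichment, the authors' ratio over local background, the 2 kinds of far-end region stood close together. Over regions with peaks of both, convergent medians were 6.10 in sh-VNGD and 6.33 in sh-ctrl. At 1 far end they were 6.17 in sh-VNGD and 6.29 in sh-ctrl. Convergent regions were also wider, with a median of 317 bp against 284 bp. The quartile ranges of divergent regions (46 to 113 tags in sh-VNGD and 50 to 123 in sh-ctrl) lay above those of regions at 1 far end (14 to 37 in sh-VNGD and 13 to 43 in sh-ctrl), and overlapped those of tandem and convergent regions.

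By pileup, the highest divergent regions lay together on chromosome 17. The region of TUBD1 and RPS6KB1, at chr17:59892435-59893947, had 257 tags in sh-VNGD against 270 in sh-ctrl. That of VMP1, which encodes a membrane protein of autophagosome formation, and PTRH2, a mitochondrial hydrolase gene, at chr17:59707070-59708262, had 235 tags in sh-VNGD against 253 in sh-ctrl. The region of PRR11 and the spindle gene SKA2, at chr17:59154426-59155911, had 236 in sh-VNGD against 244 in sh-ctrl. All 3 fall between 59 and 60 Mb, a stretch chosen after these values were seen. There the 20 gene-end regions had medians of 128 tags in sh-VNGD against 127 in sh-ctrl, and all gene-end regions had 48 in sh-VNGD against 52 in sh-ctrl. The 155 regions of this stretch away from gene ends had 24 in sh-VNGD against 27 in sh-ctrl, and all such regions 16 in sh-VNGD against 14 in sh-ctrl. The copy number of this stretch was not measured, and its part in the pileup was not tested.

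Among tandem regions the highest were those of PTPN6, a phosphatase gene of blood cells, and C12orf57 (chr12:6946045-6946794; 194 tags in sh-VNGD against 212 in sh-ctrl) and of BRPF1, a subunit gene of histone acetyltransferase complexes, and CPNE9 (chr3:9730894-9731607; 194 in sh-VNGD against 193 in sh-ctrl). The region of the splicing factor gene BCAS2 and DENND2C had 184 tags in sh-VNGD against 198 in sh-ctrl. Convergent regions were led by the chloride channel gene CLCN2 with FAM131A (chr3:184345660-184346123; 138 tags in sh-VNGD against 143 in sh-ctrl), XAB2 with the microtubule gene CAMSAP3 (chr19:7618707-7620339; 125 in sh-VNGD against 143 in sh-ctrl) and the transcription factor gene ZBTB7B with DCST2 (chr1:155017236-155017865; 110 in sh-VNGD against 152 in sh-ctrl). Relative to all gene-end regions, the libraries differed by more than counting error in these 6 regions only at ZBTB7B and DCST2. The log2 ratio of sh-VNGD over sh-ctrl there, relative to the median of all gene-end regions, was −0.48 (−0.85 to −0.11). The intervals of the other 5 included 0. Scaled to kept tags without subtracting that median, which was −0.44, the log2 ratios of the 6 ran from −0.92 to −0.44.

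In divergent regions the highest summit lay between the starts more often than outside them. Among 790 regions with starts at least 50 bp apart and peaks of both libraries, the summit was between the starts in 507 in sh-VNGD (64.2%, Wilson 95% interval 60.8 to 67.4) and in 521 in sh-ctrl (65.9%, 62.6 to 69.2). The median distance between these starts was 193 bp. In tandem regions the summit was nearer to the start of the downstream gene than to the far end of the upstream gene in 346 of 431 regions in sh-VNGD (80.3%) and in 339 of 421 in sh-ctrl (80.5%). Its median distance to that start was 140 bp in sh-VNGD and 137 bp in sh-ctrl. Over all shared-end regions with peaks of both, the summits of the libraries lay a median of 20 bp apart.

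**Figure D2:**
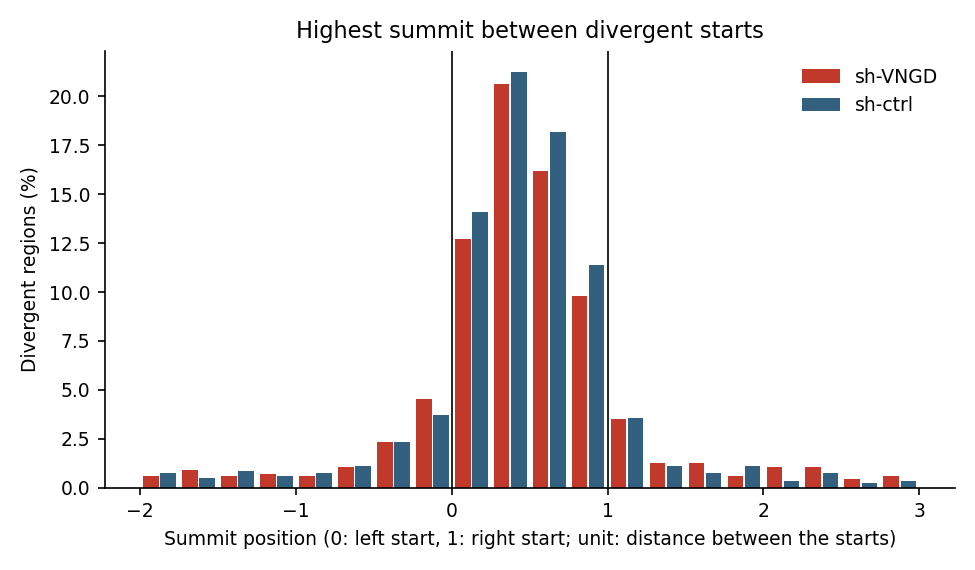
Position of the highest summit in divergent regions with starts 50 bp or more apart (horizontal axis, 0 at the left start and 1 at the right start, in units of the distance between them) against the percentage of regions in sh-VNGD (858 regions) and sh-ctrl (809 regions). Most summits lie between the 2 vertical lines, and 19.6% in sh-VNGD against 16.2% in sh-ctrl lie beyond the plotted range.

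Pileup was lowest where the starts nearly touched. Divergent regions with starts at most 100 bp apart had medians of 62 tags in sh-VNGD against 67 in sh-ctrl (220 regions). From 100 to 250 bp the medians were 84 in sh-VNGD against 95 in sh-ctrl (417 regions), from 250 to 500 bp 93 in sh-VNGD against 106.5 in sh-ctrl (205 regions), and from 500 to 1000 bp 88 in sh-VNGD against 102 in sh-ctrl (68 regions). Where the genes overlapped at their starts, they were 69 in sh-VNGD against 76 in sh-ctrl (343 regions).

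Counted from the genes, starts with a divergent neighbour were open more often than lone starts. Of 2096 starts with the start of an opposite-strand gene within 1000 bp, 92.99% (91.8 to 94.003) had a region with peaks of both libraries within 1000 bp. Of 11361 starts with no other protein-coding gene end within 2000 bp, 62.3% (61.4 to 63.2) did. No peak of either library was found at 5.44% of the starts with a divergent neighbour and at 31.3% of lone starts. The 2 starts of a pair share a region, so the intervals are too narrow for the pairs.

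Promoters in divergent regions differed from promoters at a single start in composition. The promoter table gave 300 bases per start, from 250 before to 50 after it, for 1790 starts in divergent regions and 7218 in regions at 1 start, each at the gene's outer end. The median CpG observed over expected was 0.87 in divergent regions, 0.826 at 1 start, 0.771 over all 13150 promoters and 0.281 at starts without any region. Median GC content was similar, 64.7% in divergent regions and 65.0% at 1 start. An ETS core, bound by factors such as GABPA, was present in 27.5% of promoters in divergent regions (25.5 to 29.6), in 16.1% at 1 start (15.3 to 16.99) and in 14.8% of all promoters. A YY1 core was present in 9.89% in divergent regions (8.59 to 11.4), in 6.82% at 1 start (6.26 to 7.42) and in 6.59% of all promoters. TATA boxes ran the other way, at 4.13% in divergent regions (3.31 to 5.16), 7.16% at 1 start (6.59 to 7.78) and 10.1% of all promoters. The GC box was found in 72.1% in divergent regions, 68.1% at 1 start and 58.9% of all promoters, and the CCAAT box in 40.5% in divergent regions, 36.4% at 1 start and 36.8% of all promoters. The NRF1 core was rarer, at 3.02% in divergent regions, 2.08% at 1 start and 1.86% of all promoters. For the ZNF143 core these shares were 1.12% in divergent regions, 0.457% at 1 start and 0.418% of all promoters, and for the CRE 3.24% in divergent regions, 3.37% at 1 start and 2.77% of all promoters. The windows of 2 close starts overlap, so a match can be counted for both genes. Promoters at the start within a tandem region held an ETS core in 23.6% of 373 cases (19.6 to 28.2).

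**Figure D3:**
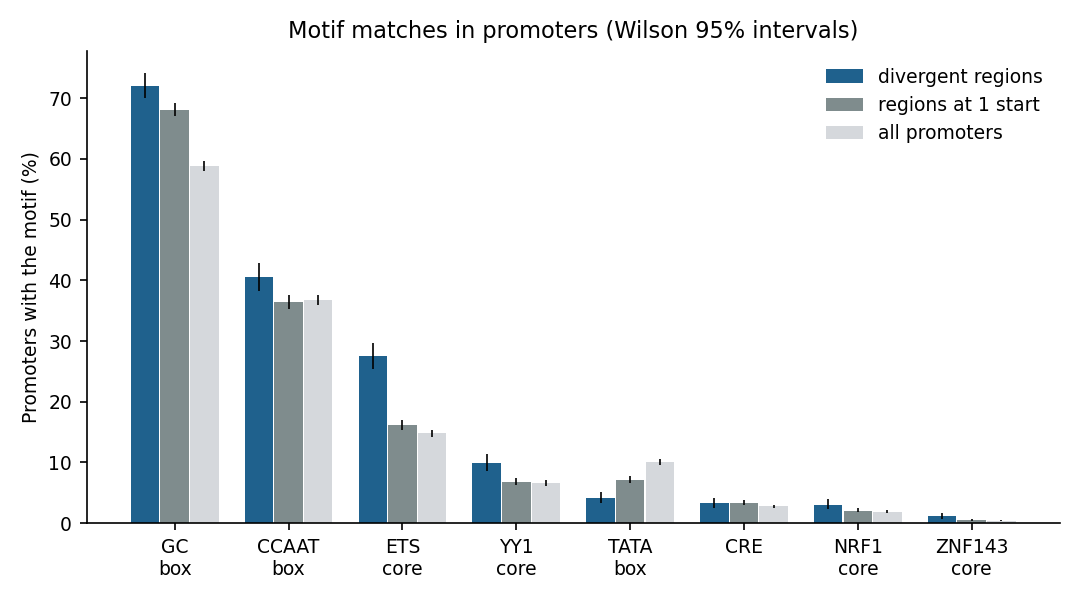
Percentage of promoters (vertical axis) that hold each motif on either strand, for starts in divergent regions, starts in regions at 1 start, and all promoters, with Wilson 95% intervals. The ETS core stands at 27.5% in divergent regions against 16.1% at 1 start, and the TATA box at 4.13% against 7.16%.

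Within divergent regions, median pileup was higher with some motifs and lower with others, and these differences were not tested. Regions with a CCAAT box in either promoter had medians of 88 tags in sh-VNGD against 102 in sh-ctrl (501 regions), and those without had 71 in sh-VNGD against 76 in sh-ctrl (491 regions). The 16 regions with a ZNF143 core had 132.5 tags in sh-VNGD against 141 in sh-ctrl, and those without had 78 in sh-VNGD against 86 in sh-ctrl. The NRF1 core went the other way, with 58.5 in sh-VNGD against 75 in sh-ctrl where present (42 regions) and 78 in sh-VNGD against 88 in sh-ctrl where absent. With a TATA box the medians were 70.5 in sh-VNGD against 90.5 in sh-ctrl (65 regions), and without it 78 in sh-VNGD against 87 in sh-ctrl. With an ETS core the medians were 81 in sh-VNGD against 93 in sh-ctrl, and without it 77.5 in sh-VNGD against 84 in sh-ctrl. A motif match is not evidence of binding.

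Shared-end regions were found in both libraries more often than regions at 1 end. Peaks of both were present in 2439 of 2917 regions (83.6%, Wilson 95% interval 82.2 to 84.9), against 73.4% (72.8 to 74.1) at a single end and 40.4% away from gene ends. The order of the arrangements followed that of the pileups, with 89.7% (87.9 to 91.2) of divergent, 81.3% (77.5 to 84.5) of tandem and 59.8% (52.7 to 66.5) of convergent regions. Regions at 1 start stood at 82.0% (81.3 to 82.7) and regions at 1 far end at 50.6% (48.9 to 52.2). At equal pileup the shared-end regions were not shared more often. From 20 to 30 tags per 10000000 kept tags, 97.2% (95.3 to 98.4) of shared-end regions and 97.6% (96.9 to 98.1) of regions at 1 end had peaks of both. From 10 to 20 the shares were 77.3% (73.7 to 80.6) and 84.1% (82.9 to 85.2), the lower one at shared ends.

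**Figure D4:**
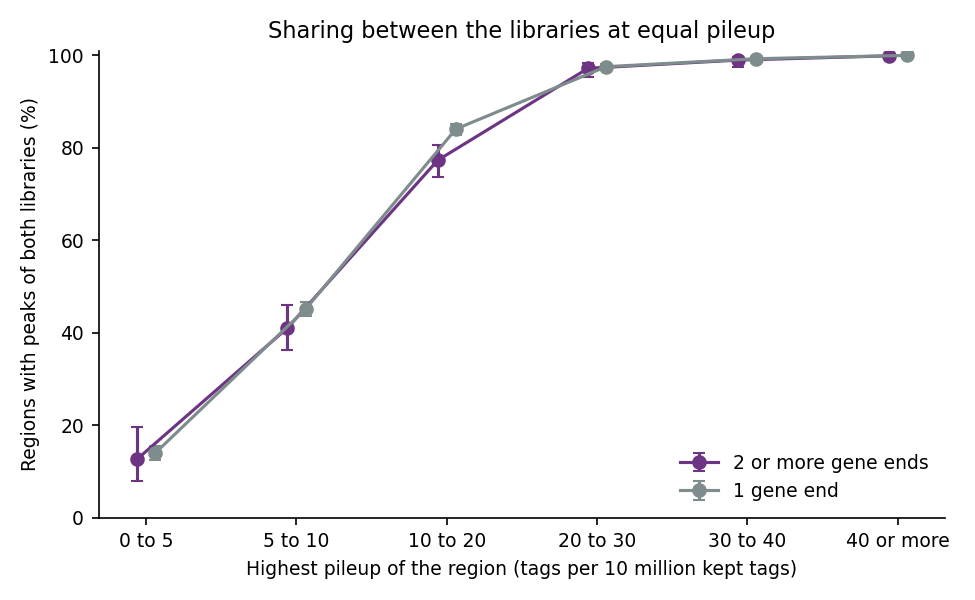
Percentage of regions with peaks of both libraries (vertical axis, Wilson 95% intervals) by the higher of the 2 pileups, in tags per 10000000 kept tags, for regions at 2 or more gene ends and at 1 gene end. From 20 upwards the 2 kinds lie close together, and from 10 to 20 shared ends stand at 77.3% and single ends at 84.1%.

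The remaining 478 shared-end regions had a peak of 1 library. In sh-VNGD only there were 303 (10.4%), against 16.2% of all gene-end regions, and in sh-ctrl only 175 (6.0%), against 8.92% of all. With equal numbers of peaks taken from each list, the order turned, with 188 in sh-VNGD only and 241 in sh-ctrl only. In the full lists, median pileups of the 1-library regions were low, 22 tags in sh-VNGD against 19 in sh-ctrl. In 223 of them the same gene pair also had a region of both libraries. By pair, 2170 of 2410 had such a region, 139 had peaks of sh-VNGD only and 95 of sh-ctrl only. Among 1-library regions, a peak of the other library lay within 500 bp of 154 of the 303 in sh-VNGD only and of 73 of the 175 in sh-ctrl only. Absence from a peak list does not mean that no tags were there.

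The highest sh-VNGD only region was convergent, between the actin regulator gene VASP and OPA3 (chr19:45526269-45526508), with 64 tags. The nearest sh-ctrl peak, of 90 tags, was 1425 bp away. The region of ZNHIT2 and the sterol reductase gene TM7SF2 (chr11:65116815-65117109) had 62 tags in sh-VNGD, with a sh-ctrl peak of 127 tags 303 bp away. DQX1 and AUP1, a lipid droplet protein gene, had 60 tags, and DGLUCY and the kinase gene RPS6KA5 had 59, with a sh-ctrl peak of 190 tags 147 bp away from the last of these. In sh-ctrl only, the region of TNFRSF12A, the receptor for the cytokine TWEAK, and HCFC1R1 (chr16:3022351-3022576) had 95 tags, with a sh-VNGD peak of 172 tags 696 bp away. The zinc transporter gene SLC39A1 and CREB3L4 (chr1:153968081-153968350) had 86 tags, with a sh-VNGD peak of 102 tags 75 bp away. The histone genes H2AC8 and H2BC8 had 79 tags and GNG13 and CHTF18 had 78. Of these 8 regions, 7 had a nearest peak of the other library that was higher than the 1-library peak, the exception being H2AC8 and H2BC8, where the sh-VNGD peak had 78 tags.

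For regions with peaks of both libraries, the log2 ratio of sh-VNGD over sh-ctrl pileup was scaled to kept tags. It is given relative to the median of all gene-end regions, which was −0.44. The same comparison of unscaled pileups differs from it by 0.01. Shared-end regions had a median relative ratio of −0.05 (quartiles −0.22 and 0.14), and regions at 1 end of 0.01 (−0.19 and 0.26). The ratio varied with height: at shared ends it was 0.11 from 10 to 20 tags per 10000000 kept tags, 0.03 from 20 to 30 and −0.11 at 40 or more, and at 1 end it was 0.15, 0.02 and −0.10 in the same bins. Shared-end regions were also the higher ones, and the bins are made from the same pileups as the ratio.

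Few shared-end regions differed more than 2-fold. Of 2219 with a pileup of 30 or more in either library, 21 (0.95%) were lower by that much in sh-VNGD, against 0.86% of all gene-end regions, and 11 (0.50%) were higher, against 1.36%. Exact counting intervals lay wholly below 0 for 149 regions (6.71%), against 5.85% of all gene-end regions, and wholly above 0 for 60 (2.7%), against 4.9%. The share of lower regions was thus near that of all gene ends. These counts depend on the measure: without centring 111 regions were lower and 2 higher, by fold enrichment 2 were lower and 7 higher, and with summed pileups 22 were lower and 22 higher.

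**Figure D5:**
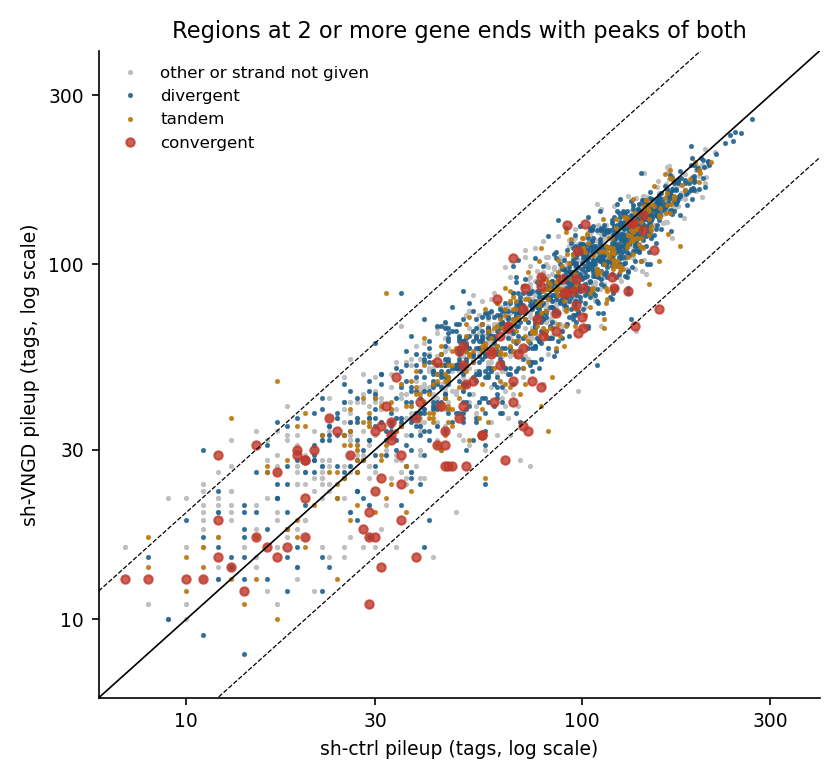
Pileup in sh-VNGD (vertical axis) against sh-ctrl (horizontal axis), both in tags on log scales, for the 2439 shared-end regions with peaks of both, coloured by arrangement. The solid line marks equal pileups and the dashed lines a 2-fold difference. Of the convergent regions with 30 or more tags, 7 lie past the lower line and 1 past the upper.

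The 6 lowest ratios belonged to regions with few sh-VNGD tags, from 15 to 34. PHF21A, which encodes a histone-binding protein of a deacetylase complex, and the glycosyltransferase gene LARGE2 shared a region at chr11:45929865-45930458 with 15 tags in sh-VNGD against 42 in sh-ctrl. Its relative log2 ratio was −1.50 (−2.45 to −0.62). The linker histone gene H1-5 and H2AC16 had 27 tags in sh-VNGD against 74 in sh-ctrl (−1.47), with reads that may be shared among histone gene copies. COPS6, a COP9 signalosome gene, and MCM7, a subunit gene of the replicative helicase, meet tail to tail at chr7:100091774-100092129, where 15 tags were counted in sh-VNGD against 38 in sh-ctrl (−1.35, −2.32 to −0.46). The translation factor gene EIF3G and P2RY11 had 28 tags in sh-VNGD against 70 in sh-ctrl. The divergent pair of ATP5ME, an ATP synthase subunit gene, and MYL5 had 16 in sh-VNGD against 40 in sh-ctrl. Both stood at −1.33. In the tandem pair of the mitochondrial transporter gene ABCB8 and the acid-sensing channel gene ASIC3, 34 tags were counted in sh-VNGD against 82 in sh-ctrl (−1.28). Fold enrichment over local background is computed from the same pileup, so it is no separate check of regions chosen by pileup. The authors' fold enrichment was also lower in sh-VNGD for all 6. Its log2 ratio ran from −0.29 at H1-5 and H2AC16 to −1.09 at ATP5ME and MYL5, against a median of −0.10 over all gene-end regions.

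All 6 of the highest ratios came from regions with few sh-ctrl tags. ATAT1, the tubulin acetyltransferase gene, and the mitochondrial ribosomal gene MRPS18B had 37 tags in sh-VNGD against 13 in sh-ctrl at chr6:30626643-30627015, a relative log2 ratio of 1.498 (0.55 to 2.53). NFKBIZ, a regulator gene of the NF-kB response, and NXPE3 had 47 in sh-VNGD against 17 in sh-ctrl (1.46, 0.63 to 2.35). The divergent pair of MBOAT7 and TSEN34, a tRNA splicing gene, had 30 in sh-VNGD against 11 in sh-ctrl (1.44). SPEGNB and GMPPA had 83 in sh-VNGD against 32 in sh-ctrl at chr2:219497871-219498272 (1.36, 0.76 to 1.9998). The thromboxane synthase gene TBXAS1 and the kinase gene HIPK2 had 32 in sh-VNGD against 13 in sh-ctrl (1.29), and NUDC and GPATCH3 had 83 in sh-VNGD against 35 in sh-ctrl (1.23, 0.65 to 1.85). Fold enrichment was higher in sh-VNGD in each of them, with log2 ratios from 0.59 to 1.21. The regions were chosen by the pileup that enters it, so the shared direction is again no separate check.

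Convergent regions carried the most lower values for their number. Their median relative log2 ratio was −0.15 (quartiles −0.52 and 0.17, 113 regions), against 0.09 (−0.21 and 0.39) in regions at 1 far end. Of the 89 with 30 or more tags, 7 (7.87%, Wilson 95% interval 3.86 to 15.4) were past 2-fold lower in sh-VNGD and 1 past 2-fold higher. In regions at 1 far end the shares were 3.06% lower (2.14 to 4.36) and 2.85% higher. Counting intervals lay wholly below 0 in 23 of the 89 (25.8%, 17.9 to 35.8) and in 12.7% at 1 far end (10.7 to 14.9). By height, 7 of 23 convergent regions from 20 to 30 tags per 10000000 kept tags had intervals below 0 (30.4%, against 13.7% at 1 far end), 4 of 18 from 30 to 40 (22.2%, against 21.1%) and 8 of 20 at 40 or more (against 23.8%). The 23 regions lay on 11 chromosomes and none held a gene of the replication-dependent histone list. By fold enrichment, the median log2 ratio of the 23 was −0.35, with 21 lying below the −0.10 of all gene-end regions. Fold enrichment is computed from the same pileup by which the 23 were chosen, so it is no separate check of them. Over all convergent regions the median by fold enrichment was −0.12, near that −0.10, and it was −0.06 at 1 far end. The difference between convergent and single far ends was not tested, as there is 1 library per group.

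Besides that of COPS6 and MCM7, 6 convergent regions were past 2-fold lower, and 4 of them fall outside the rule for named regions and were chosen after their values were seen. CDT1, which licenses replication origins, met the purine salvage gene APRT at chr16:88809111-88809882, with 67 tags in sh-VNGD against 136 in sh-ctrl (−1.03, −1.48 to −0.60). NTHL1, a DNA glycosylase gene of base excision repair, met NHERF2 at chr16:2039594-2039938, with 34 in sh-VNGD against 73 in sh-ctrl (−1.11). The ribosomal protein gene RPS3 met KLHL35 at chr11:75422011-75422879, with 75 in sh-VNGD against 157 in sh-ctrl (−1.08, −1.49 to −0.67). INTS12, an Integrator subunit gene, met ARHGEF38, with 28 in sh-VNGD against 64 in sh-ctrl (−1.20). M1AP met DOK1, with 14 in sh-VNGD against 31 in sh-ctrl, and PPP1R14D met ZFYVE19, with 35 in sh-VNGD against 71 in sh-ctrl. The only convergent region past 2-fold higher joined GDI2 and TASOR2, with 31 tags in sh-VNGD against 15 in sh-ctrl. By fold enrichment CDT1 and APRT stood at −0.13, near the −0.10 of all gene ends.

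Few divergent regions were past 2-fold. Of 1085 with 30 or more tags, 4 (0.37%) were past 2-fold lower and 3 (0.28%) past 2-fold higher, against 0.51% and 1.35% at 1 start. Besides ATP5ME and MYL5, the lower ones were those of LOC112694756 and TLCD3B (24 tags in sh-VNGD against 57 in sh-ctrl), of ATF5, a stress-response factor gene, with IL4I1 and NUP62 (19 in sh-VNGD against 41 in sh-ctrl), and of the histone genes H2BC7, H2AC7 and H3C4 (52 in sh-VNGD against 109 in sh-ctrl). The higher ones, besides those of NUDC and MBOAT7, included the type IV collagen pair COL4A3 and COL4A4, with 36 tags in sh-VNGD against 17 in sh-ctrl (1.07, 0.20 to 1.996). Counting intervals lay below 0 in 5.53% of divergent regions, near the 5.85% of all gene-end regions and the 4.61% at 1 start. They lay above 0 in 2.58%, against 4.9% of all gene-end regions.

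Known bidirectional pairs stood near the level of all gene ends. From a list of 22 gene pairs, 18 had a region shared by both genes, 22 regions in all, and 20 of these had peaks of both libraries. Intervals included 0 in 19 of the 20, the median relative log2 ratio was −0.10, and 13 of the 20 ratios were below 0. Over all gene-end regions with 30 or more tags, only 5.85% of intervals lay wholly below 0 and 4.9% wholly above. Intervals that include 0 are thus usual at gene ends and not particular to these pairs. The damage kinase gene ATM and NPAT, a regulator gene of histone transcription, shared a region at chr11:108222378-108223453 with 109 tags in sh-VNGD against 127 in sh-ctrl (−0.23, −0.61 to 0.15). BRCA2, of homologous recombination, and ZAR1L had 58 in sh-VNGD against 63 in sh-ctrl. The flap endonuclease gene FEN1 and TMEM258 had 53 in sh-VNGD against 63 in sh-ctrl. The end-joining kinase gene PRKDC and MCM4 had 2 regions, of 78 tags in sh-VNGD against 86 in sh-ctrl and of 50 in sh-VNGD against 54 in sh-ctrl. All 4 of these pairs had intervals that included 0.

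Among the pairs whose sequences are shown above, the chaperonin genes HSPD1 and HSPE1 had 138 tags in each library. GART and SON had 143 tags in sh-VNGD against 150 in sh-ctrl, TK1 and AFMID 105 in sh-VNGD against 119 in sh-ctrl, and the histidyl-tRNA synthetase genes HARS1 and HARS2 106 in sh-VNGD against 132 in sh-ctrl, the lowest ratio of the list at −0.33 (−0.71 to 0.05). SARS2 and MRPS12 were low in both, with 26 tags in sh-VNGD against 16 in sh-ctrl. The antigen-processing pair of TAP1, a peptide transporter gene, and PSMB9, a proteasome subunit gene, had 24 tags in sh-VNGD against 17 in sh-ctrl. A further region of that pair had 8 tags, in sh-VNGD only, and a further region of TK1 and AFMID had 41, in sh-ctrl only. The pair of SURF1, a cytochrome oxidase assembly gene, and SURF2 gave the interval above 0, with 24 tags in sh-VNGD against 11 in sh-ctrl (1.11, 0.03 to 2.29). In its other region, with 23 tags in sh-VNGD against 11 in sh-ctrl, the interval included 0 (1.05, −0.04 to 2.24).

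Shared ends with a peak were frequent in several gene families. A gene counts here only if a peak region lay at the shared end, so each share combines gene arrangement with openness. Of 40 genes of double-strand break repair, 19 (47.5%) had an end in a shared-end region and 15 (37.5%) in a divergent one, against 23.5% and 10.6% of all protein-coding genes. For other DNA repair genes the counts were 20 of 44 (45.5%) and 14 (31.8%). Mitochondrial ribosomal protein genes had 41 of 77 (53.2%), respiratory chain genes 33 of 69 (47.8%), aminoacyl-tRNA synthetase genes 15 of 37 (40.5%), cytosolic ribosomal protein genes 28 of 72 (38.9%) and cell cycle and replication genes 24 of 65 (36.9%). Chromatin remodeller genes had 15 of 45 (33.3%), and the clustered replication-dependent histone genes 40 of 62 (64.5%). Keratin genes, which are tissue-restricted, had 2 of 38 (5.26%), the pair KRT8 and KRT18.

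Of these lists the histone genes had the lowest median relative log2 ratio, −0.50, against −0.05 over all shared-end regions. No list was tested as a set. Histone regions were listed with 15 of 28 intervals wholly below 0 and none above. Their reads may be shared among near-identical copies. Medians were −0.14 for both groups of repair genes, −0.17 for cell cycle, −0.21 for cytosolic ribosomal, −0.20 for synthetase, −0.25 for remodeller, −0.08 for mitochondrial ribosomal and −0.04 for respiratory chain genes. Intervals below 0 numbered 1 of 24 for double-strand break repair, 3 of 23 for other repair, 5 of 30 for cell cycle, 4 of 27 for cytosolic ribosomal and 1 of 16 for remodeller genes, and none for the synthetase (16), mitochondrial ribosomal (42), respiratory chain (28) and keratin (2) regions. Intervals above 0 numbered 2 for mitochondrial ribosomal genes and none for the other lists. Over all gene-end regions these shares were 5.85% and 4.9%.

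Several list extremes are described above, and their intervals excluded 0. The lowest were NTHL1 in other DNA repair, MCM7 in cell cycle, RPS3 in cytosolic ribosomal and H1-5 in histone genes, and MRPS18B was the highest of the mitochondrial ribosomal genes. In double-strand break repair the lowest was the region at the outer starts of NBR1 and BRCA1, with 38 tags in sh-VNGD against 68 in sh-ctrl (−0.85, −1.46 to −0.26), and the highest that of RAD52 and ERC1, with 65 in sh-VNGD against 53 in sh-ctrl. Only the outer bounds of genes were used, so any start inside the bounds of BRCA1 was not examined. Among synthetase genes CARS2 with ING1 had 38 tags in sh-VNGD against 57 in sh-ctrl, and WARS1 with WDR25 had 37 in sh-VNGD against 34 in sh-ctrl. PBRM1, a SWI/SNF subunit gene, with GNL3 had 63 in sh-VNGD against 52 in sh-ctrl, and CHD3 with RNF227 had 31 in sh-VNGD against 43 in sh-ctrl. In the respiratory chain NDUFB6 with TOPORS had 39 in sh-VNGD against 56 in sh-ctrl, and COX4I1 with EMC8 had 89 in sh-VNGD against 68 in sh-ctrl. MRPL57 with SKA3 had 73 in sh-VNGD against 98 in sh-ctrl. The phosphatase gene CDC25B with CENPB had 56 in sh-VNGD against 38 in sh-ctrl, and RPS10 with its read-through gene had 79 in sh-VNGD against 56 in sh-ctrl. H2BC18 with H3C13, the highest histone region, had 31 in sh-VNGD against 27 in sh-ctrl. The KRT8 and KRT18 pair had regions of 174 tags in sh-VNGD against 166 in sh-ctrl and of 152 in sh-VNGD against 146 in sh-ctrl. Apart from NBR1 and BRCA1, each region given with its tags here had an interval that included 0.

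Members near the 1000 bp limit resembled regions just outside it. Where the second gene end lay 800 to 1000 bp from the region, medians were 41 tags in sh-VNGD against 49 in sh-ctrl and 66.2% of 373 regions had peaks of both. Outside the limit by at most 200 bp, they were 42 in sh-VNGD against 46 in sh-ctrl, and 71.8% of 344. Where the second end lay inside the region, medians were 92 in sh-VNGD against 97 in sh-ctrl, and 98.7% of 1225 regions had peaks of both. These regions were wider, with a median of 921 bp, against 386 bp just inside the limit and 361 bp just outside. Regions at 1 gene end that were 800 bp or wider had medians of 86 in sh-VNGD against 89 in sh-ctrl, and 99.9% had peaks of both.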

How the data were processed

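ATAC-seq libraries of U2OS cells, 1 sh-VNGD and 1 sh-ctrl, were used as deposited peak lists. The header of the sh-VNGD list names its library sh_2, and the list was assigned to sh-VNGD by the sample under which it was deposited. Peaks were called per library with MACS 2.1.0.20150731 without a control library, with a q cutoff of 0.05, tags shifted by 100 bp and extended to 200 bp and 1 tag kept per position, per the file headers. Tools listed in the submitters' processing notes are deepTools, Bowtie2 2.2.5 and MACS2 2.1.2, with builds hg38 and GRCh38.p13. Alignment filters are not given in the sources used here. The deposited pileup is a signal, the count of tags over the summit, unscaled for depth. The deposited −log10 q values and −log10 p values and the fold enrichment, a ratio over local background, are the authors' per-peak values. Peak widths are in bp, an other unit deposited by the authors.

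Peaks overlapping by 1 bp or more were merged with Python 3.11.15 and pandas 2.3.3. Gene bounds came from RefSeq GRCh38.p14 (19126 protein-coding genes) and strand from its promoter table (15101 genes). Distances ran from region edge to gene end. Ratios used the highest pileup per kept tag, with exact Clopper-Pearson 95% intervals from scipy 1.17.1, and shares have Wilson intervals. Class assignment was tested on made-up example genes, and ratios on simulated counts. The simulated counts held counting error alone, as the intervals assume, so they say nothing of the spread between libraries. Named regions were the 3 highest per arrangement, the 6 lowest and 6 highest ratios at 30 or more tags, the 4 highest per library among 1-library regions, 22 listed pairs and the extremes of 10 gene lists. Others are named where a count was small. Some regions under this rule are not reported here. The members and lists were chosen with earlier results of these data known.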

Additional observations from a re-analysis of the deposited data

How the results depend on the processing

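No paired analysis was possible because each group has 1 library and no test was made. With 1 library per group, none could be left out. Shared-end regions had peaks of both libraries more often than regions at 1 end in every alternative run that could change this share. Runs that altered the pileup measure, the centring or the pileup minimum could not change it. At equal pileup the share was not higher at shared ends, as described above. The median log2 ratio was the lower one at shared ends in each run. Leaving out the centring shifts both medians by the same amount, and removing the pileup minimum leaves them unchanged. A window of 500 bp gave 90.9% with peaks of both (divergent 95.4%), 13 regions past 2-fold lower and 10 higher, and 104 in sh-VNGD only and 77 in sh-ctrl only. A window of 2000 bp gave 4611 regions, 77.5% with peaks of both (divergent 86.1%), 35 past 2-fold lower and 25 higher, and 649 in sh-VNGD only and 390 in sh-ctrl only. The median pileup at shared ends divided by that at 1 end was 1.49 in sh-VNGD against 1.54 in sh-ctrl. It was 1.68 in sh-VNGD and 1.62 in sh-ctrl at 2000 bp, 1.42 in sh-VNGD and 1.43 in sh-ctrl with a −log10 q of 5 or more (85.4% with peaks of both), and 1.18 in sh-VNGD and 1.15 in sh-ctrl by fold enrichment. The same quotient for divergent regions over regions at 1 start stood at 1.35 in sh-VNGD against 1.42 in sh-ctrl. The ratio was 1.45 in sh-VNGD at 2000 bp, and 1.12 in sh-VNGD and 1.15 in sh-ctrl by fold enrichment. Fold enrichment left 2 regions past 2-fold lower and 7 higher, with a centred median log2 ratio of −0.018. Without centring, the median was −0.49, with 111 lower and 2 higher. Summed pileups gave 22 lower and 22 higher, and no pileup minimum 22 lower and 20 higher, against 21 lower and 11 higher in the report. With equal numbers of peaks, 188 were in sh-VNGD only and 241 in sh-ctrl only, against 303 in sh-VNGD only and 175 in sh-ctrl only with all peaks. The causes of these shifts were not tested. For single named regions, 196 alternative values stayed within the counting interval and 36 did not, and none changed sign where the interval excluded 0. Many of these values could hardly differ from the main ones. Merging at 100 bp or more returned the main value, and summed pileup nearly did so where each library had 1 peak. Leaving out the centring shifted all values alike, and fold enrichment is computed from the same pileup. The counts are thus no measure of stability.

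Kept depth limits low regions: peaks went down to 7 tags in sh-VNGD and to 6 in sh-ctrl. Of the alternatives chosen after the data were seen, a minimum of 30 tags gave a median of −0.06, leaving out chromosome 17 gave −0.05, and keeping only genes with a strand gave 83.8% with peaks of both.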
